A study of Arabidopsis thaliana with 8 samples.

Results

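The genes described here are 9 genes of suberin synthesis in Arabidopsis thaliana, chosen by name and TAIR locus out of 27444 nuclear protein-coding genes: GPAT5, CYP86A1, CYP86B1, ASFT, KCS2, KCS20, FAR1, FAR4 and FAR5. All 9 loci were found in the annotation. For each gene, the bases under called chromatin immunoprecipitation (ChIP-seq) regions were counted on the gene span, from annotated start to annotated end, and on the 1 kb upstream of the start. The nuclei came from non-hair cells of the root epidermis of Col-0 plants aged 10 days. The plants carried a biotin ligase under the ACT2 promoter and the nuclear tagging protein NTF under the GLABRA2 promoter, which is active in non-hair cells, and tagged nuclei were captured on streptavidin beads. Root tissue was pooled to 3 g per sample, from 1.25 cm segments of the differentiated zone without root tip or lateral roots. The antibodies recognised histone H3, its forms H3K4me1, H3K4me3, H3K27ac and H3K27me3, and the variant H2A.Z, with 1 library each. Of the 8 samples 2 were inputs, of which 1 belonged to the H3K27me3 library, and both were not analysed here.

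Suberin is a polyester of fatty acids, glycerol and ferulate that root cells lay down between plasma membrane and wall, where it limits the passage of water and ions. In the young Arabidopsis root it is known from the differentiated endodermis, the cell layer around the stele, and not from the epidermis. Its fatty acids are lengthened by ketoacyl-CoA synthases (KCS), oxidised at the far end by cytochromes P450 of the CYP86 family or reduced to alcohols by fatty acyl reductases (FAR), linked to glycerol by an acyltransferase (GPAT5), and linked to ferulate by ASFT. Among the marks, H3K4me3 and H3K27ac are known from the starts of active genes, H3K4me1 from the bodies of transcribed plant genes and H3K27me3 from genes silenced by Polycomb proteins. H2A.Z lies near gene starts and along some silent genes.

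The libraries held between 14717 regions (H3K4me3) and 36146 regions (H3K27ac), listed by position only. The files give no read counts, so the depth of the libraries is unknown. With 1 library per target there is no replicate error, and every comparison describes these libraries without a test. The smallest region differed between libraries, from 179 bp (H3K27ac) to 254 bp (H3K4me1), and 39.2% to 63.4% of regions were of that size. Cover of 200 bp or more was the rule for calling a gene marked, which a single smallest region reaches for H3K4me1, H3K27me3 and H3 but not for the other targets. Among marker genes listed by locus, H3K27ac was called on 5 of 8 non-hair genes, 1 of 6 root hair genes and 4 of 8 endodermis genes, and H3K27me3 on 4 of 8, 6 of 6 and 4 of 8. The shares of all protein-coding genes were 56.6% and 41.9%, so the non-hair and endodermis counts were near the background for both marks. The non-hair gene GL2 itself had 412 bp of H3K27ac and 1311 bp of H3K27me3. Markers of the endodermis with H3K27ac, MYB36, CASP1, ESB1 and SCR, had 293, 542, 680 and 600 bp, and the part of other cells' chromatin in the values below was not tested.

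H3K27me3 was the mark that most of the suberin genes carried, on 8 of 9, and H2A.Z was called on 8 of 9 as well. Across all protein-coding genes the same rule called 41.9% for H3K27me3 and 38.2% for H2A.Z. H3K4me3 was called on KCS20 and no other gene of the 9, where the share of all genes was 25.7%. H3K27ac was called on 5 of 9, close to the background of 56.6%. H3K4me1 was called on 4 of 9, beside 52.1%, and H3 on 5 of 9, beside 42.6%. No suberin gene was without a called target, against 12.2% of all genes and 2.40% of genes of similar length, so this count is near the background.

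**Figure D1:**
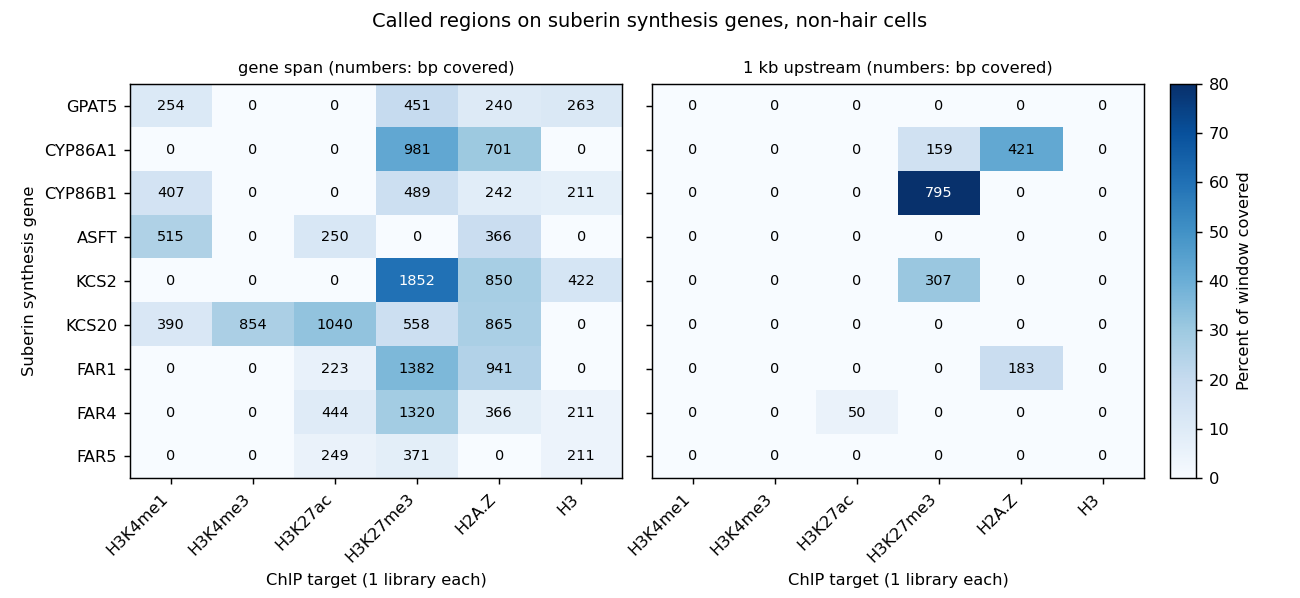
Cover of the 9 genes (rows) by regions of the 6 targets (columns), on the gene span at left and on 1 kb upstream at right. Shade is the percent of the window covered and the printed number is bp covered in the 1 library of each target. KCS2 has the most H3K27me3 on its span, 1852 bp, and H3K4me3 is seen on KCS20 alone.

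The median percent of the span covered was 20.0% for H3K27me3 in the 9 genes and 0% in all protein-coding genes. For H2A.Z the medians were 18.3% and 5.92%. For H3K27ac the order was the other way round, with 5.30% and 11.9%, and for H3K4me1 it was 0% and 9.14%. The suberin genes were longer than the typical gene, with a median of 3088 bp against 2078 bp, which favours a call at a fixed number of bases. Among the 12426 protein-coding genes whose length lay within that of the 9 (2002 to 4695 bp), the shares called were 44.9% for H3K27me3, 44.1% for H2A.Z, 71.2% for H3K27ac, 73.2% for H3K4me1, 55.0% for H3 and 34.9% for H3K4me3. Beside genes of their length, the 5 of 9 for H3K27ac was near the background and the 5 of 9 for H3 lay at it. The 4 of 9 for H3K4me1 was lower than its background, a difference that was not tested.

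**Figure D2:**
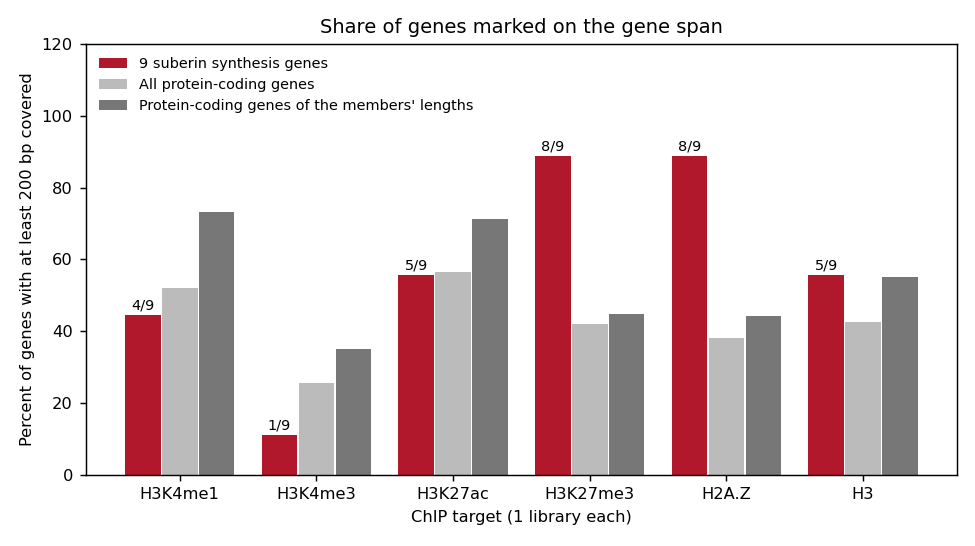
Percent of genes with at least 200 bp of the gene span covered, for each target (1 library each): the 9 suberin genes (red, with counts), all 27444 protein-coding genes (light grey) and the 12426 of similar length (dark grey). The red bars stand far above both grey bars for H3K27me3 and H2A.Z and below both for H3K4me1 and H3K4me3. For H3K27ac and H3 the red bar is close to 1 of the grey bars.

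The calls for H3K27me3 did not rest on regions of the smallest size: without these regions all 8 genes were still called, while the share of all genes fell to 26.0%. When regions had to reach 500 bp, 5 of 9 were called (CYP86A1, CYP86B1, KCS2, FAR1 and FAR4), against 11.7% of all genes. H2A.Z was called on 6 of 9 without its smallest regions, against 33.2% of all genes, when ASFT and FAR4 had 0 bp left. It was called on 0 of 9 with regions of at least 500 bp, against 4.46% of all genes. For H3, 5 of its 6 regions on these genes were of the smallest size, and without them 1 of 9 was called, near the 19.8% of all genes.

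H3K27me3 and H2A.Z were called together on 7 of 9 genes, where 19.1% of all protein-coding genes and 21.5% of those of similar length had both. Each was called on 8 of 9, so this joint count was the lowest possible and is not a separate result. A joint call also does not mean shared bases: GPAT5 had 24 bp under both and CYP86B1 0 bp. H3K27me3 with neither H3K4me3 nor H3K27ac was found on 4 of 9 (GPAT5, CYP86A1, CYP86B1 and KCS2), against 18.3%, or 13.7% at similar length. H3K27me3 together with H3K27ac was called on another 4 (KCS20, FAR1, FAR4 and FAR5), against 22.3%, or 29.6% at similar length. ASFT was the gene with H3K27ac and without H3K27me3. By these calls the 9 genes fell into 3 patterns, and the genes are described by enzyme below. The patterns depend on the cut of 200 bp: FAR1, FAR5 and ASFT had 223, 249 and 250 bp of H3K27ac. With regions of at least 500 bp KCS20 alone kept H3K27ac, 1 of 9, against 14.6% of all genes. The 4 of 9 with both H3K27me3 and H3K27ac was also not far from the 29.6% at similar length.

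**Figure D3:**
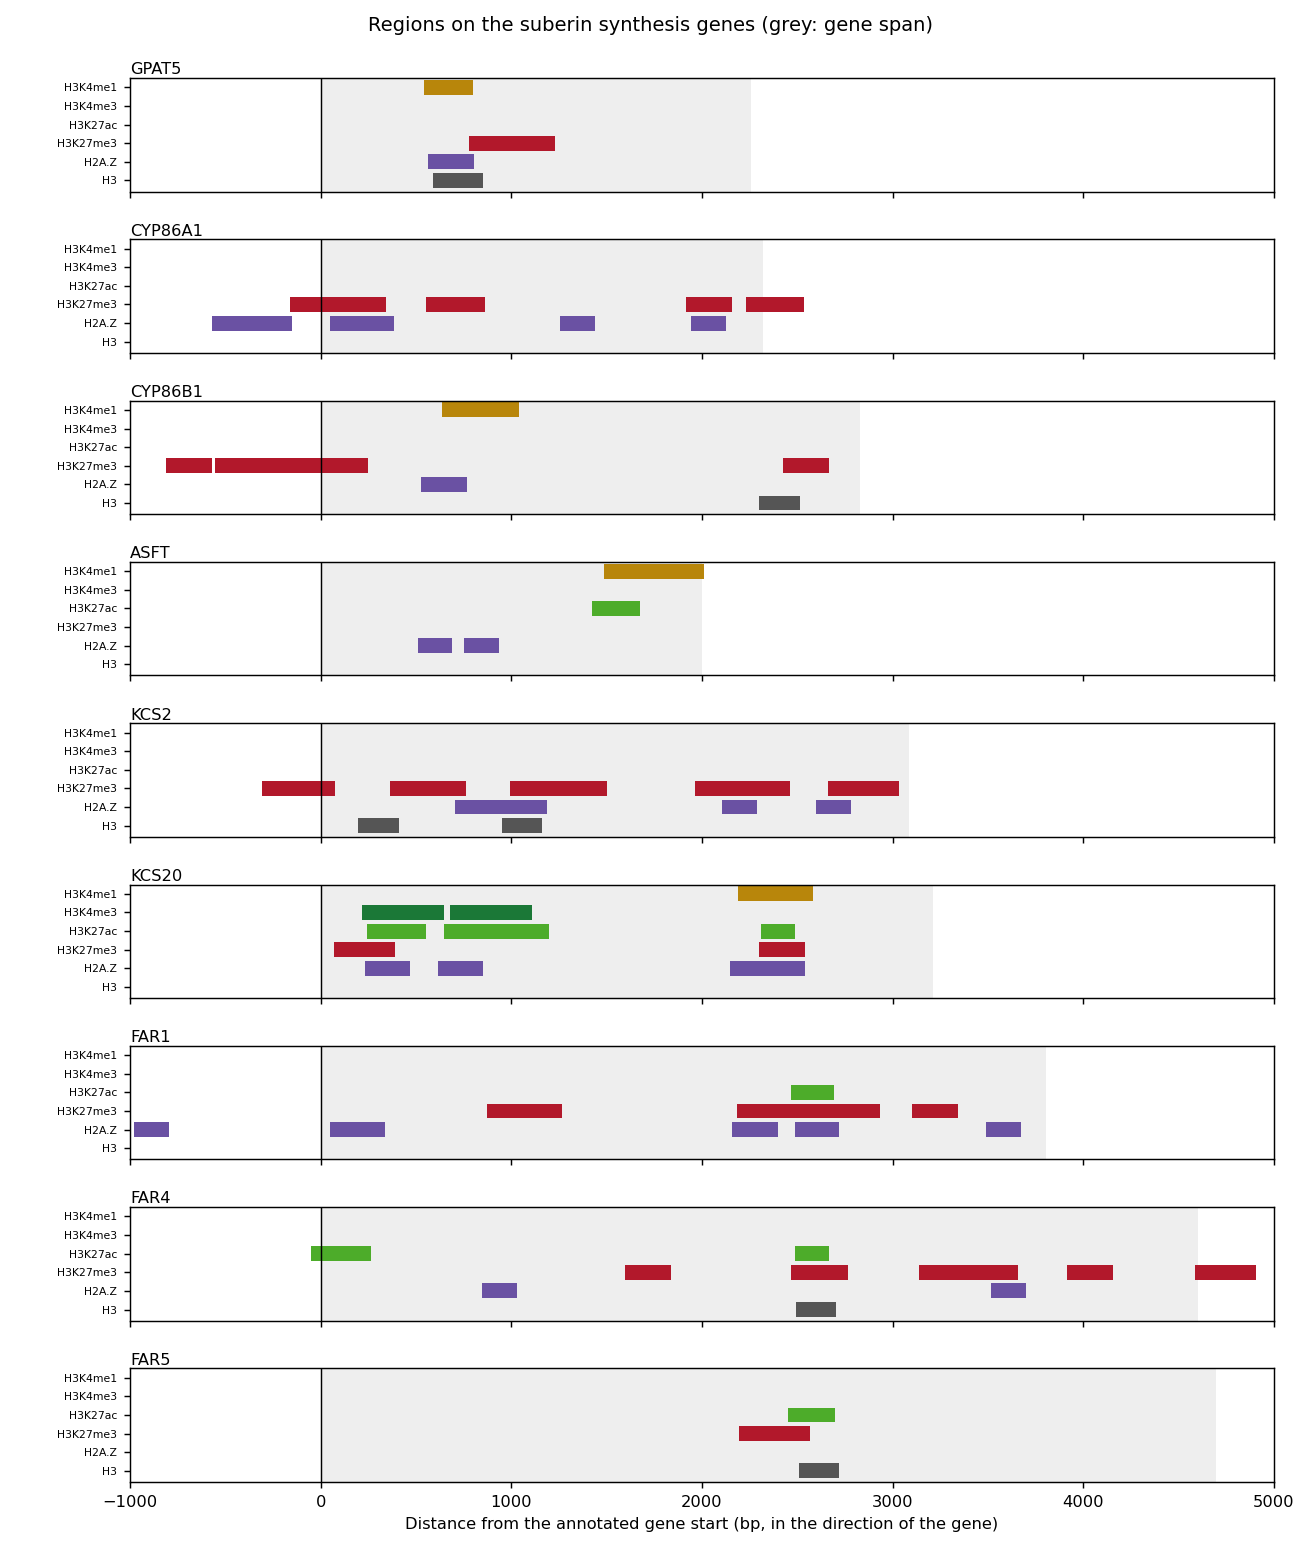
Position of each called region (bars, coloured by target, 1 library each) on the 9 genes, drawn by distance from the annotated start, upstream window included. Grey marks the gene span. H3K27me3 crosses the start of CYP86A1, CYP86B1 and KCS2, and starts inside the gene in GPAT5, KCS20 and the FAR genes, with the last region of FAR4 passing the gene's end by 299 bp.

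CYP86A1 and CYP86B1 encode the cytochromes P450 that oxidise the end of the fatty acid chain, CYP86A1 on shorter and CYP86B1 on very long chains. Both had H3K27me3 over the start and neither had any H3K27ac or H3K4me3. CYP86A1 (AT5G58860, TAIR10 chromosome 5, 23765791 to 23768111, minus strand, 2 exons) had 981 bp of H3K27me3 on its span, 42.3% of it. The 4 H3K27me3 regions were of 500, 310, 241 and 305 bp. The first ran from 159 bp before the start to 340 bp after it, over the 5' UTR and coding sequence of exon 1, and the last passed the gene's end by 216 bp. H2A.Z covered 701 bp of the span and 421 bp of the upstream window, in a region from 570 to 150 bp before the start. On this gene H2A.Z and H3K27me3 were the targets present, and H3K4me1, H3K4me3, H3K27ac and H3 had 0 bp in both windows.

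The neighbour beyond the 3' end of CYP86A1, the MYB transcription factor gene MYB119, lay 234 bp away and had 1246 of its 1612 bp under H3K27me3. The gene on the other side, ftsh9, which encodes a protease, had 0 bp of H3K27me3 and 1620 bp of H3K4me1. H3K27me3 was thus present on the neighbour on the 3' side and absent from the one on the 5' side.

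CYP86B1 (AT5G23190, chromosome 5, 7803141 to 7805968, minus strand, 2 exons) had more H3K27me3 before its start than in its span. The upstream window held 795 bp and the span 489 bp (17.3%). A region of 802 bp, the longest of all on the 9 genes, ran from 554 bp before the start to 247 bp after it, with 248 bp in the 5' UTR of exon 1, and a further region of 241 bp lay just upstream of it. Within the gene H3K4me1 covered 407 bp and H2A.Z 242 bp of the coding part of exon 1, and H3 covered 211 bp in exon 2. Cover of the upstream window by at least 200 bp of H3K27me3 was found in CYP86B1 and KCS2, 2 of 9, against 20.5% of all genes. For H2A.Z it was found in CYP86A1 alone, against 12.7%.

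No suberin gene reached 200 bp of upstream cover by H3K4me1, H3K4me3, H3K27ac or H3. The shares of all genes were 11.0%, 5.17%, 16.9% and 10.2%, so a count of 0 of 9 is near the background for each. The single upstream base count above 0 among these 4 targets was 50 bp of H3K27ac at FAR4. The 250 bp before the start of the 3 genes with H3K27me3 across the start, and of FAR4, are shown because they carry these marks at the promoter. They are given on the strand of the gene, from the RefSeq sequence of TAIR10.1, with the bases under H3K27me3 (for FAR4 under H3K27ac) in capitals. They lie at chr5:7805969-7806218 (CYP86B1, minus strand), chr1:1122787-1123036 (KCS2, minus strand), chr5:23768112-23768361 (CYP86A1, minus strand) and chr3:16123176-16123425 (FAR4, plus strand).
CYP86B1: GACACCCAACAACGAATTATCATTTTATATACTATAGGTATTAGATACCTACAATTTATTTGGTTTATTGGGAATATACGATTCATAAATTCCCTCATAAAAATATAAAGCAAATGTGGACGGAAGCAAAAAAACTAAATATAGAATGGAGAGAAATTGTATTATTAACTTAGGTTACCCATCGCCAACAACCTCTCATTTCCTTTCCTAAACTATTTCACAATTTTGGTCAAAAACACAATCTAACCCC
KCS2: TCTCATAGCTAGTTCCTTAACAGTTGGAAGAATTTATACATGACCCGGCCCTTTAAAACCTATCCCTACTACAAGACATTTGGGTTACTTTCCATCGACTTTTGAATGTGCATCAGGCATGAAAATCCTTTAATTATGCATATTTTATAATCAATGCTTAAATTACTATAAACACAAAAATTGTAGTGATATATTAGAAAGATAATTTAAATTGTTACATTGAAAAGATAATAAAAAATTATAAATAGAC
CYP86A1: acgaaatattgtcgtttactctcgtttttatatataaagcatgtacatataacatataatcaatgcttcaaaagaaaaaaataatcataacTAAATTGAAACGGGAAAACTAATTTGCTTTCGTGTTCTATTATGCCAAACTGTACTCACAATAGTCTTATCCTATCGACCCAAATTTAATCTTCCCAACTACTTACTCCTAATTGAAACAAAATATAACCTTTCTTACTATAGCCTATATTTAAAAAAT
FAR4: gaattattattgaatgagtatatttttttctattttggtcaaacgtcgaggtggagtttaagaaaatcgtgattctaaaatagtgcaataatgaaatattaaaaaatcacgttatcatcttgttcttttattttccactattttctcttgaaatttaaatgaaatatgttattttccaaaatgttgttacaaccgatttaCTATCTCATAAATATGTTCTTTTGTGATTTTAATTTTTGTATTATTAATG
All 250 bases of CYP86B1 and KCS2 lay under H3K27me3, 159 of CYP86A1 did, and 50 of FAR4 lay under H3K27ac. The share of G and C was low in all 4, from 23.2% in FAR4 to 30.8% in CYP86B1.

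The windows from 250 bp before to 50 bp after the start were searched on both strands for 4 motifs. The telobox AAACCCTA and the GA repeat GAGAGAGA, known from sites where Polycomb complexes are brought to plant genes, were in 0 of the 9 windows, against 6.22% and 8.38% of 27443 protein-coding genes. The motif ACGTGNC, of the kind bound by factors of the abscisic acid response, was in 0 of 9, against 10.3%. ACCNAAC, a form bound by R2R3 MYB factors, was in 2 of 9, against 17.2%. CYP86B1 held it at -247 to -241 bp from the start, within the sequence printed above and under H3K27me3. ASFT held it in 2 places, at -244 to -238 bp and at -224 to -218 bp, with no region of any target there. No motif match overlapped another.

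KCS2 and KCS20 encode ketoacyl-CoA synthases that lengthen the fatty acids of suberin and act redundantly in the root. Of their 1554 aligned coding bases 84.1% were identical, and their called regions differed. KCS2 (AT1G04220, chromosome 1, 1119699 to 1122786, minus strand, 2 exons) had 1852 bp of H3K27me3, 60.0% of the span, and 5.93% of all protein-coding genes had a larger share. Its 5 regions of 374 to 510 bp were spread over the whole gene, the first from 307 bp before the start to 74 bp after it and the last ending 3032 bp after the start. H2A.Z covered 850 bp in 3 regions and H3 422 bp in 2, and H3K4me1, H3K4me3 and H3K27ac had 0 bp.

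KCS20 (AT5G43760, chromosome 5, 17585523 to 17588733, plus strand, 2 exons) was the gene with the most targets. It had 854 bp of H3K4me3 in 2 regions, from 219 to 644 and from 679 to 1106 bp after the start. H3K27ac covered 1040 bp, 32.4% of the span, and 15.0% of all genes had a larger share. H3K27me3 covered 558 bp (17.4%), H2A.Z 865 bp and H3K4me1 390 bp. H3K27ac and H3K4me3 shared 740 bp here, 86.7% of the bases under H3K4me3 on the 9 genes. All 3 of H3K4me3, H3K27ac and H3K27me3 were called on KCS20, 1 of 9, against 9.99% of all genes and 14.3% at similar length.

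In KCS20 the marks formed stacks, stretches where at least 3 targets covered the same bases. The first, from 232 to 468 bp after the start, had H3K4me3, H3K27ac, H3K27me3 and H2A.Z. The second, from 679 to 851 bp, had H3K4me3, H3K27ac and H2A.Z. The last, from 2299 to 2539 bp in the coding part of exon 2, had H3K4me1, H3K27ac, H3K27me3 and H2A.Z, and its H3K27ac and H3K27me3 regions were each of the smallest size. Without regions of the smallest size KCS20 kept 317 bp of H3K27me3, at its 5' end, of which 309 bp lay in the 5' UTR. Over the 9 spans, 5.10% of bases lay under at least 3 targets, against 4.53% in all protein-coding genes.

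The annotation places an antisense long noncoding gene, AT1G04247, inside KCS2 over 2302 bp, and the tail-to-tail neighbour AT1G04210 meets the end of KCS2. AT1G04247 had 1403 bp of H3K27me3, bases shared with KCS2 that positions alone cannot assign to either gene. AT1G04210 had 2059 bp of H3K4me1 and 629 bp of H3K27me3 over 5365 bp. KCS20 overlapped no other gene, and AT5G43770, 56 bp beyond its end, had 0 bp of all 6 targets. Matching of 36 bp words to the whole genome found 0.590% of those of KCS2 and 0.567% of those of KCS20 at another place. The same share was at most 2.66% (FAR5) in the 9 genes.

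GPAT5 encodes the glycerol-3-phosphate acyltransferase that forms the glycerol esters of suberin. GPAT5 (AT3G11430, chromosome 3, 3595694 to 3597952, plus strand, 2 exons) had 1 region each of 4 targets, all inside the gene. H3K27me3 covered 451 bp (20.0%), from 780 to 1230 bp after the start, over the end of exon 1, the intron and part of exon 2. H3K4me1 covered 254 bp, a region of the smallest size, H2A.Z 240 bp and H3 263 bp, all beginning between 544 and 590 bp after the start. H3K4me3 and H3K27ac had 0 bp. The upstream window held no region of any target, although it contains the whole of the noncoding gene AT3G02415.

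The H3K4me1, H2A.Z and H3 regions of GPAT5 lay on the same part of exon 1, and the H3K27me3 region began within their last part. The stretch under at least 3 targets in GPAT5 and the last stack of KCS20 are shown because H3K27me3 meets other targets there in coding sequence. Capitals mark bases under 4 targets. They lie at chr3:3596284-3596497 (GPAT5) and chr5:17587822-17588062 (KCS20), both on the plus strand.
GPAT5: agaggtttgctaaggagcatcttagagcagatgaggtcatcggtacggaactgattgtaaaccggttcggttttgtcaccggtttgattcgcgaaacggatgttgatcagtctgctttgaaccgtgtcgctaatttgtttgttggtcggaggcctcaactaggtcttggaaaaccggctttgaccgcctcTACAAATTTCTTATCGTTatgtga
KCS20: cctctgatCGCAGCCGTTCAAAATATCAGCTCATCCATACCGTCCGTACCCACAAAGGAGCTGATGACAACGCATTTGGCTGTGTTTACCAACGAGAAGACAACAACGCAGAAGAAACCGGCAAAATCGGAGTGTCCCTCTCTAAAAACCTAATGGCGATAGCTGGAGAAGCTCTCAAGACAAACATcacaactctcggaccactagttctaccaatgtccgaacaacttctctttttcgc
In GPAT5 18 of 214 bases were under 4 targets, and in KCS20 179 of 241.

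ASFT encodes the feruloyl transferase that adds the phenolic part of aliphatic suberin. It was the gene without H3K27me3: 0 bp on its span and 0 bp upstream. ASFT (AT5G41040, named RWP1 in the annotation, chromosome 5, 16431304 to 16433305, plus strand, 4 exons) had 515 bp of H3K4me1, 25.7% of the span and the largest share among the 9. H3K27ac covered 250 bp (12.5%) in 1 region from 1423 to 1672 bp after the start, far from the promoter, where 56.4% of protein-coding genes of at least 500 bp had H3K27ac in the first 500 bp. H2A.Z covered 366 bp in 2 regions of the smallest size around exons 2 to 4. Its 3' end overlaps the oppositely oriented AT5G41050, and 8 bp of the H3K4me1 region lay beyond the end of ASFT.

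FAR1, FAR4 and FAR5 encode fatty acyl reductases that make the primary alcohols of suberin. The 3 genes have 10 exons each in the annotation and share 73.1% to 77.0% of aligned coding bases. All 3 had H3K27me3 and H3K27ac on their spans, and none had H3K4me1 or H3K4me3. FAR1 (AT5G22500, chromosome 5, 7470328 to 7474133, plus strand) had 1382 bp of H3K27me3 (36.3%), 223 bp of H3K27ac and 941 bp of H2A.Z. FAR4 (AT3G44540, chromosome 3, 16123426 to 16128030, plus strand) had 1320 bp of H3K27me3 (28.7%), 444 bp of H3K27ac, 366 bp of H2A.Z and 211 bp of H3. FAR5 (AT3G44550, chromosome 3, 16137576 to 16142270, plus strand) had 371 bp of H3K27me3 (7.90%), 249 bp of H3K27ac and 211 bp of H3, and was the gene without H2A.Z. FAR5 also had the fewest regions, 3, against 9 for FAR1 and 10 for FAR4.

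In each FAR gene a short H3K27ac region lay about the same distance from the start. It ran from 2469 to 2691 bp in FAR1, from 2487 to 2665 bp in FAR4, where it was of the smallest size, and from 2449 to 2697 bp in FAR5. Each overlapped an H3K27me3 region, of 751, 301 and 371 bp, and each had a further target over it, H2A.Z in FAR1 and H3 in FAR4 and FAR5. The exons below it were not the same in all 3: exon 8 in FAR1 and FAR5, and exons 5 and 6 in FAR4. The bases under both H3K27ac and H3K27me3 are shown for comparison, with those also under H2A.Z (FAR1) or H3 (FAR4 and FAR5) in capitals. They lie at chr5:7472797-7473019 (FAR1), chr3:16125913-16126091 (FAR4) and chr3:16140025-16140141 (FAR5), all on the plus strand.
FAR1: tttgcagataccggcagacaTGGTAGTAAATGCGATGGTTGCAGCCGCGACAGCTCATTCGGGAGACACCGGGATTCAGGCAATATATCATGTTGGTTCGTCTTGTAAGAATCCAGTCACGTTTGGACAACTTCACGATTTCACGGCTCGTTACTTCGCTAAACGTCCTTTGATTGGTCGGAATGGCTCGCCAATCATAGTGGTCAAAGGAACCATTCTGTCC
FAR4: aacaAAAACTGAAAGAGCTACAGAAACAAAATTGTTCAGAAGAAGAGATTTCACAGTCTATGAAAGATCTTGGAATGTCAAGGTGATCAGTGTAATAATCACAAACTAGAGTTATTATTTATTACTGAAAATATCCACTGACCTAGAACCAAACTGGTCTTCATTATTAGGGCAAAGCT
FAR5: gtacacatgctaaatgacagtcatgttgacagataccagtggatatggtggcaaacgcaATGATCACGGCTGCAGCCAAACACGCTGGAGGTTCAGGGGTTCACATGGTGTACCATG
The stretches of FAR1 and FAR5, both from the boundary of intron 7 and exon 8, had 73.0% of 115 aligned bases identical. That of FAR4, which spans intron 5, had 33.0% G and C against 48.4% in FAR1 and 49.6% in FAR5. The FAR1 stretch also lies in AT5G22505, a protein-coding gene on the opposite strand inside FAR1, which had 223 bp of H3K27ac and 964 bp of H3K27me3.

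Compared exon by exon, H3K27me3 lay on exon 8 in all 3 genes, over 270, 117 and 85 of its 270 bp in FAR1, FAR4 and FAR5. Exon 9, of 128 bp, was covered whole in FAR1 and FAR4, in each case by a region of the smallest size, and not at all in FAR5. Exon 7, of 82 bp, was covered whole in FAR1 and FAR5 and not in FAR4. H3K27me3 covered 0 bp of the first exon in all 3. Exon 8 had between 66.3% and 73.3% identical bases in the 3 pairs, and 0.186%, 0.109% and 2.66% of the 36 bp words of FAR1, FAR4 and FAR5 occurred elsewhere in the genome.

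**Figure D4:**
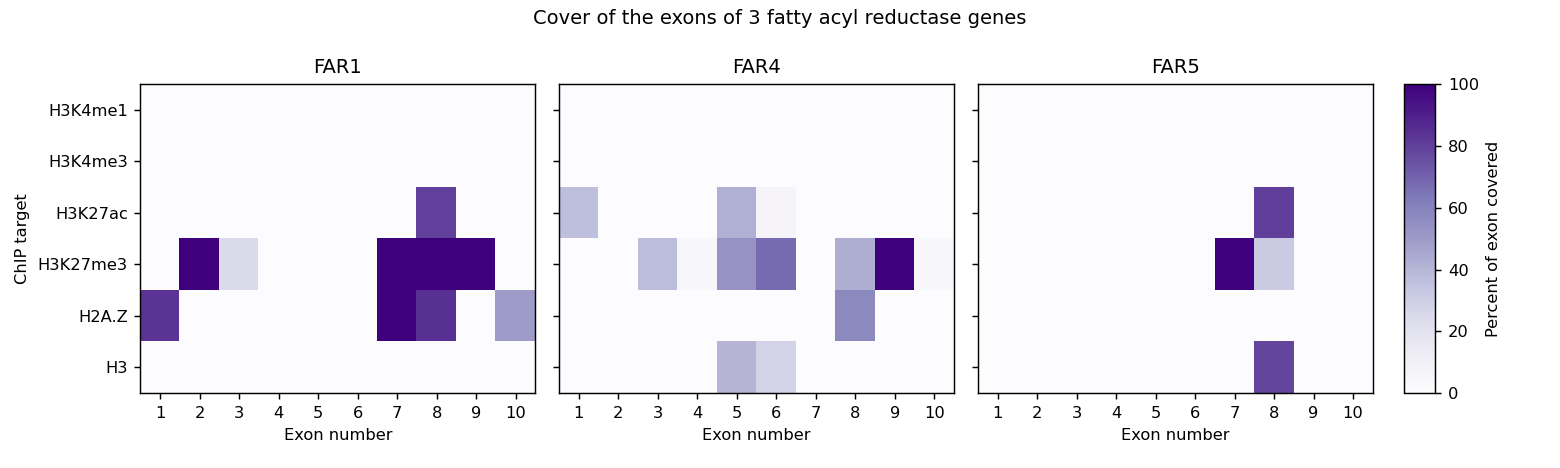
Percent of each exon (1 to 10) of FAR1, FAR4 and FAR5 under regions of the 6 targets (rows, 1 library each). H3K27me3 is present on exon 8 in all 3 genes, and H3K27ac covers 216 and 217 bp of exon 8 in FAR1 and FAR5.

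FAR4 had the only other H3K27ac region of the group, of 315 bp, which ran from 50 bp before the start to 264 bp after it. This region covered the whole of AT3G06845, an antisense noncoding gene of 210 bp at the FAR4 start. FAR4 was the gene with H3K27ac across its start, and KCS20 had it within the first 500 bp. In the first 500 bp, 2 of 9 suberin genes had any H3K27ac, against 56.4% of protein-coding genes, and 1 of 9 had any H3K4me3, against 30.5%. H3K27me3 was present there in 4 of 9, against 31.3%, and in the last 500 bp of the gene in 5 of 9, against 19.6%. The counts for H3K4me3 and H3K27me3 in the first 500 bp were near the background, and none of these differences was tested.

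FAR4, FAR5 and FAR8 lie in this order on chromosome 3, with the noncoding gene AT3G06855 between FAR4 and FAR5 and the protein-coding gene AT3G44555 between FAR5 and FAR8. AT3G44555, of 1058 bp, had 79 bp of H3K27me3, 248 bp of H3K27ac and 402 bp of H2A.Z. The 9545 bp between FAR4 and FAR5 held 822 bp of H3K27me3 (8.61%), and the 8852 bp between FAR5 and FAR8 held 1481 bp (16.7%), so the mark was not continuous across the cluster. FAR8, a related reductase gene, had 1134 bp of H3K27me3 and 701 bp of H2A.Z on its span and 0 bp of H3K27ac. HIRA, a histone chaperone gene 1891 bp before FAR4, had 0 bp of H3K27me3, 1888 bp of H3K4me1 and 525 bp of H3K4me3.

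The number of regions of all targets on span and upstream window together was 65, of which 24 were H3K27me3 and 21 H2A.Z. H3K27me3 regions touched coding sequence, introns and UTRs in proportions close to those of the genes: 49.7% coding, 34.5% intron and 15.8% UTR, where the 9 spans were 47.7%, 33.0% and 19.4%. Of the bases under H2A.Z 69.5% were coding, and under H3K27ac 74.6%. The share was 73.3% under H3, 86.0% under H3K4me1 and 81.1% under H3K4me3, so it was high for every target but H3K27me3. H2A.Z and H3K27me3 shared 2049 bp, 39.6% of the bases under H2A.Z and 23.6% of those under H3K27me3, in 6 of the 9 genes. H3K27ac and H3K27me3 shared 843 bp in 4 genes, 37.4% of the bases under H3K27ac and 9.73% of those under H3K27me3. These shares describe overlap of called regions and cannot tell the same nucleosomes from a mixture of cells.

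The regulators of suberin synthesis carried H3K27me3 in every case: 9 of 9 listed MYB and NAC genes were called, beside 41.9% of all genes, with a median of 48.7% of the span covered. MYB92, an activator of suberin genes, had the most, 1576 of its 1709 bp, and also the most H3K27ac of the list, 1218 bp. MYB9 had 1187 bp and MYB53 1075 bp of H3K27me3. MYB41, which can switch on suberin synthesis, had 795 bp and 368 bp in the upstream window. H3K27ac was called on 4 of these 9 (MYB92, MYB9, MYB107 and NAC046) and H3K4me3 on 2 (MYB92 and NAC046). The shares of all genes were 56.6% and 25.7%, so both counts were near the background.

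The list of export and other suberin genes consists mostly of ABCG transporters that move suberin precursors out of the cell. It had more calls for H3K27ac than for H3K27me3, which is also the order in all protein-coding genes. H3K27ac was called on 8 of 9, beside 56.6% of all genes, and H3K27me3 on 5 of 9, beside 41.9%. The count for H3K27me3 was near the background, with a median of 9.04% of the span covered. At the length of the 9 suberin synthesis genes the share called for H3K27ac was 71.2%, not far from 8 of 9. ABCG11 led with 991 bp of H3K27ac and had 0 bp of H3K27me3, ABCG1 had 833 bp and 241 bp, and FACT, an acyltransferase related to ASFT, 725 bp and 241 bp. AT2G48130 and GPAT7 had the most H3K27me3, 1099 and 864 bp. ABCG6 and ABCG20, both transporters of suberin precursors, had 0 bp of H3K27me3, like ABCG11 and AT5G08250.

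Genes that supply the pathway but also serve other lipids and phenolics were marked by H3K27ac in 8 of 8 and by H3K4me3 in 7 of 8, beside 56.6% and 25.7% of all genes. They include the elongase partners KCR1, PAS2 and CER10 and the phenylpropanoid genes PAL1, PAL2, C4H, 4CL1 and 4CL2. PAL2 had 1075 bp of H3K27ac, PAL1 728 bp and 4CL1 593 bp. H3K27me3 was called on 4 of the 8, near the 41.9% of all genes, with 852 bp on PAL1, 631 bp on KCR1 and 553 bp on C4H.

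Cutin, the polyester of the shoot epidermis, is made by relatives of the suberin enzymes. Of 14 cutin genes H3K27me3 was called on 10, H2A.Z on 11, H3K27ac on 6 and H3K4me3 on 2. The shares of all genes were 41.9%, 38.2%, 56.6% and 25.7%. GPAT8 had the most H3K27me3, 2525 of its 2918 bp, followed by GPAT6 (1517 bp) and BDG1 (1343 bp). CYP77A6 (933 bp), DCR (597 bp) and CYP86A2 (423 bp) had the most H3K27ac. The median span cover by H3K27me3 was 18.7%, beside 20.0% for the suberin genes and the difference was not tested.

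**Figure D5:**
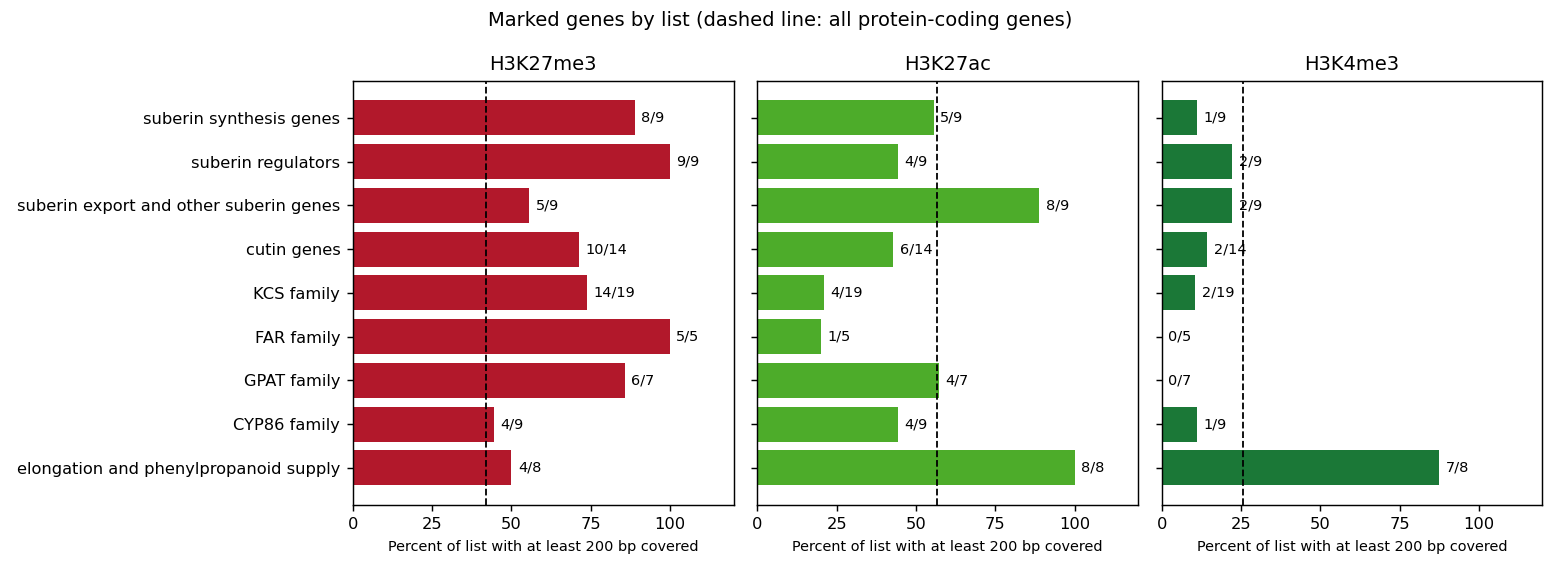
Percent of each gene list with at least 200 bp of the gene span under H3K27me3, H3K27ac or H3K4me3 (1 library each), with counts beside the bars and the share of all protein-coding genes as a dashed line. H3K27me3 is called on 8 of 9 suberin synthesis genes and 9 of 9 regulators, and H3K4me3 on 7 of 8 supply genes.

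Paralogues of the enzymes are given beside the 41.9% of all genes called for H3K27me3. Among the other reductases it was called on 5 of 5, led by FAR7 (1173 bp), FAR8 (1134 bp) and FAR6 (1029 bp). H2A.Z was also called on 5 of 5, beside 38.2% of all genes. Among the other KCS genes H3K27me3 was called on 14 of 19, with 2400 bp on KCS6, 1721 bp on KCS12 and 1423 bp on KCS10. KCS6 is known for wax synthesis. H3K27ac was called on 4 of 19 (KCS1, KCS3, KCS9 and KCS11), beside 56.6% of all genes. H3K4me3 was called on 2 of the 19, KCS9 and KCS1, at 572 and 262 bp, beside 25.7% of all genes. Of the other GPAT genes 6 of 7 were called for H3K27me3, GPAT1 being the exception with 0 bp, and of the other CYP86 genes 4 of 9, near the share of all genes and with a median cover of 0%, led by CYP86C1 (1333 bp), CYP86A8 (788 bp) and CYP86A4 (482 bp). The 4 genes of the ASFT family listed, FACT, DCF, HCT and DCR, were all called for H3K27ac, beside 56.6% of all genes. At the length of the 9 suberin genes the share was 71.2%, not far from this count. HCT, a gene of lignin synthesis, was the one without H3K27me3. The lists share genes, such as GPAT4 and DCF, so their counts are not separate.

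Genes of like pattern were ranked by the Euclidean distance over 12 values, the percent of span and of upstream window covered by each target. Nearest to CYP86A1 was the reductase gene FAR6, at a distance of 14.1 percentage points, and nearest to ASFT was MOD1, which encodes an enzyme of fatty acid synthesis, at 2.16. For KCS20 the nearest was BCS1 (6.15), for FAR1 GASA1 (5.14) and for FAR4 DEG12 (7.83). For KCS2 it was AT5G55893 (8.76), for GPAT5 AT5G35960 (4.33), for CYP86B1 AT2G21920 (14.7) and for FAR5 AT5G28900 (4.47). The nearest other suberin gene was farther than 69 protein-coding genes for CYP86A1 and farther than 4976 for ASFT. As the 9 are few among 27444 protein-coding genes, a nearest gene outside them was likely from the start. Likeness among the 9 was therefore not tested by these ranks. The closest pair within the 9 was GPAT5 and FAR4, at 19.4.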

How the data were processed

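ChIP-seq regions of 6 targets, 1 library each, were analysed; the 2 inputs were not analysed here. The authors deposited the chromosome, start and end of each region, without a header, score, count or p-value. The tools listed in the submitters' processing notes are HOMER, deepTools 2.0, SAMtools 0.1.19 and Bowtie2, and the build is TAIR10. The caller's settings were not given in the sources used here.

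Starts were read as counted from 0. Regions on chromosomes 1 to 5 were used; 1 (H3K4me3), 2 (H3K27me3) and 4 (H3) others were left out. Genes came from the RefSeq annotation of TAIR10.1, and all region ends lay within its chromosomes. Exons are those of the transcript with the longest coding sequence. Bases covered were counted with Python 3.11.15 and NumPy 2.4.6, and the counting was tested on simulated regions. Sequences were aligned with Biopython 1.88. A window with at least 200 bp covered was called marked. Members and lists were chosen with earlier results of these data known. Named genes were the members, up to 3 genes per list with the most H3K27me3 and H3K27ac, neighbours and the nearest genes by pattern; further genes were named after their values were seen. AT5G08250 and AT2G48130 are given by locus, as the annotation lists them. Depth is unknown, and no test was possible with 1 library per target.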

Additional observations from a re-analysis of the deposited data

How the results depend on the processing

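Each count of called genes was recomputed with other rules, and 59 of 78 recomputed counts lay within 1.5 times the reported one. Many of the 59 were upstream counts of H3K4me1, H3K4me3, H3K27ac and H3 that stayed at 0. Stricter rules could not change those, so the total says little about stability. With at least 50% of the span covered as the rule, the gene counts fell to 0 for H3K4me1 (2.60% of all genes), 0 for H3K4me3 (0.485%), 0 for H3K27ac (4.53%), 1, KCS2, for H3K27me3 (8.62%), 0 for H2A.Z (2.50%) and 0 for H3 (0.415%), all near the background. With regions of at least 500 bp alone they were 1 for H3K4me1 (18.4% of all genes), 0 for H3K4me3 (4.14%), 1 for H3K27ac (14.6%), 5 for H3K27me3 (11.7%), 0 for H2A.Z (4.46%) and 0 for H3 (0.987%). All but the count for H3K27me3 were near the background. Without regions of the smallest size H3 was called on 1 (19.8%). On the upstream window, H3K4me1 was called on 1 with a window of 2000 bp (30.6%) and H3K27ac also on 1 (33.9%), and H3K27ac on 1 with at least 1 bp covered (34.1%). Upstream H2A.Z was called on 2 with at least 1 bp covered (30.3%) and on 0 with regions of at least 500 bp (1.44%), and upstream H3K27me3 on 1 with regions of at least 500 bp (5.60%). These rules call fewer or more bases by construction. No paired analysis was possible because each target had 1 library. The unknown depth limits what an absent region means: a gene without a called region may still carry the mark below the caller's threshold.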
